A study of Homo sapiens with 6 samples.

Results

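The genes described here encode receptors and adhesion molecules that guide T-cell progenitors and T-cell leukaemia cells into and out of tissues: CCR9, CCR7, CCR4, CXCR4, S1PR1, SELPLG, ITGA4, ITGB1 and ITGAL. These 9 genes were chosen by symbol and matched to 1 identifier each among the 78932 gene identifiers of the count files. All 9 were among the 19086 genes tested. CCR7 and S1PR1 reached the count filter mainly through the control libraries, since only 1 of 3 MEF2C-OE libraries held at least 10 reads of either gene.

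The cells were KARPAS-45, an established human T-cell acute lymphoblastic leukaemia line known for a KMT2A::FOXO4 fusion, labelled as leukaemic blasts from bone marrow and as untreated. The 3 control libraries are labelled as wild type, and the 3 MEF2C-OE libraries came from the same line carrying a lentiviral MEF2C transgene driven by the EF1A promoter and linked to mCherry, with mCherry-positive cells sorted at 120 hours after transduction. The sources used here do not say if control cells had an empty vector or passed a sorter, so the transgene, the transduction and the sort cannot be told apart. The labels call the replicates technical, and a p-value here therefore reflects library-to-library spread that may be technical.

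Entry into the thymus or bone marrow proceeds in steps. PSGL-1, the product of SELPLG, tethers rolling cells to selectins, chemokine receptors coupled to Gi proteins then signal, and integrins bind VCAM-1 or ICAM-1 on the endothelium to arrest the cell. CCR9 answers the thymic chemokine CCL25, CCR7 answers CCL19 and CCL21, CCR4 answers CCL17 and CCL22, and CXCR4 answers CXCL12 of the marrow stroma, while S1PR1 senses sphingosine 1-phosphate (S1P) and drives exit from lymphoid organs.

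Libraries held 48218497 to 56890745 reads assigned to genes. All 11 T-cell markers examined, among them CD3D, CD3E and TRBC2, had a mean of at least 1 CPM (TMM-scaled reads relative to library size), and their summed level was 3348 to 3394 CPM in the control libraries and 2692 to 2854 CPM in the MEF2C-OE libraries. Of these markers 7 were called lower and 1 higher, where 20.2% and 20.8% of all genes tested were. The part of this shift in the results below was not tested. Of 6 B-cell markers MS4A1 had no read but BLK, CD79A and CD79B had a mean of at least 1 CPM. The B-cell sum was 68.6 to 75.9 CPM in control and 49.7 to 52.1 CPM in MEF2C-OE. None of 8 myeloid markers reached a mean of 1 CPM over the libraries, and ELANE, FCGR3A and CD33 had no read. Of 6 erythroid or megakaryocyte markers HBB and PF4 had no read. EPOR had a mean of 4.71 CPM in control and 4.59 CPM in MEF2C-OE, and ITGA2B 1.78 and 0.573 CPM. The sum of this list was 5.82 to 7.57 CPM in control and 5.01 to 5.38 CPM in MEF2C-OE. Of 10 stromal, epithelial or endothelial markers COL3A1 and EPCAM had no read, while the sum, mostly PECAM1, was 76.7 to 84.9 CPM in control and 71.4 to 75.8 CPM in MEF2C-OE, and PDGFRB had a mean of 4.13 CPM in control and 0.812 CPM in MEF2C-OE. The part of these shifts was not tested either. MEF2C itself had 10, 1 and 0 reads in control replicates 1 to 3 and 40, 29 and 41 in the MEF2C-OE libraries. Its mean was 0.0658 CPM in control and 0.680 CPM in MEF2C-OE, so it was higher there but still under 1 CPM. The part of transgene transcripts that these gene counts capture was not tested.

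Promoter sequences of the genes whose level fell or rose, and of 1 gene of level expression for comparison, are shown because MEF2C is a DNA-binding transcription factor. RefSeq entries were found for 6 of the 9 genes (S1PR1, CXCR4, ITGA4, CCR4, CCR9 and ITGB1) in 10 windows of 300 bases on GRCh38.p14, each with 250 bases before the start of transcription. Printed are only the bases before any exon of the gene, 5′ to 3′ on the gene's strand, with the letters CACCC, the core bound by Krüppel-like factors, in capitals on either strand (GGGTG where it lies on the other strand). CCR9 is shown from its first window (chr3:45886293-45886503, plus strand), S1PR1 from chr1:101236769-101236864 (plus strand), ITGB1 from its first window (chr10:32958233-32958480, minus strand) and CXCR4 from its first window (chr2:136118166-136118399, minus strand).
CCR9: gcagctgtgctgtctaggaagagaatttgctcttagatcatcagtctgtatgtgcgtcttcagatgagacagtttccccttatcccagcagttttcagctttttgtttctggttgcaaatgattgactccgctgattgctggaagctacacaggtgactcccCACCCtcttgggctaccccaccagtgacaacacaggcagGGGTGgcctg
S1PR1: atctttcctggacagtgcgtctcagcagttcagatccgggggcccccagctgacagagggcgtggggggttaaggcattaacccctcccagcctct
ITGB1: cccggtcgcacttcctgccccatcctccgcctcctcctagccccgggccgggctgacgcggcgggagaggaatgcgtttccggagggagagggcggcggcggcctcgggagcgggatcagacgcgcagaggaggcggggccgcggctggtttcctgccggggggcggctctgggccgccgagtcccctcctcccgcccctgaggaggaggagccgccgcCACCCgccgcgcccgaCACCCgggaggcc
CXCR4: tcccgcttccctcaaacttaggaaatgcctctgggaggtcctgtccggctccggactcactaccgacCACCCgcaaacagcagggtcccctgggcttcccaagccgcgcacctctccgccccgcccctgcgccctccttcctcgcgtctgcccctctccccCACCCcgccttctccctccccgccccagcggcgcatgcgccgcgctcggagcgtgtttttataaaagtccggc

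The MEF2 consensus was found in 0 of the 10 windows, against 2.99% of the 35116 promoter windows in the table, both strands searched. GTAAACA, a core bound by FOXO factors, was also found in 0 of 10, against 3.42% of all windows. CACCC was found in 9 of 10 windows and in each of the 6 genes, but 59.9% of all promoter windows hold it. In the S1PR1 window its matches begin 142 and 120 bases before the RefSeq start, inside an annotated exon and so outside the stretch printed. In CCR9 they begin 88 and 49 bases before the start, and in ITGB1 31 and 15 bases. A match or its lack describes these letters only.

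Across the 9 genes, MEF2C-OE cells had less CCR9 RNA, slightly less ITGAL and more ITGB1, whereas CXCR4, the most abundant of them, did not pass the test. S1PR1 and CCR7 were also called lower but had means under 1 CPM. The CCR7 groups overlapped, and its call depended on single libraries. By edgeR's quasi-likelihood test, adjusted over all 19086 genes, 5 of 9 were called at an adjusted p under 0.05. Of all genes tested, 41.0% were called. In the lower direction 4 of 9 were called, where 20.2% of all genes were, and in the higher direction 1 of 9, where 20.8% were. CCR7 and S1PR1 are among the 4 and entered the test through the control libraries, so the count is no sign of a lean; with a filter of 1 CPM 2 members were called lower. The share called rises with level: among the 6737 genes with a mean of at least 30 CPM, where 6 of these 9 genes lie, it was 67.3%. The groups of libraries did not overlap for 4 of the 9 genes, against 48.8% of all genes tested. Among genes with a mean of at least 30 CPM this share was 71.9%, and S1PR1, under 1 CPM, is among the 4. The median log2 change was -0.05 over the 9 genes and -0.01 over all genes tested. In these bulk libraries fewer cells with a transcript and less transcript per cell cannot be told apart.

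**Figure D1:**
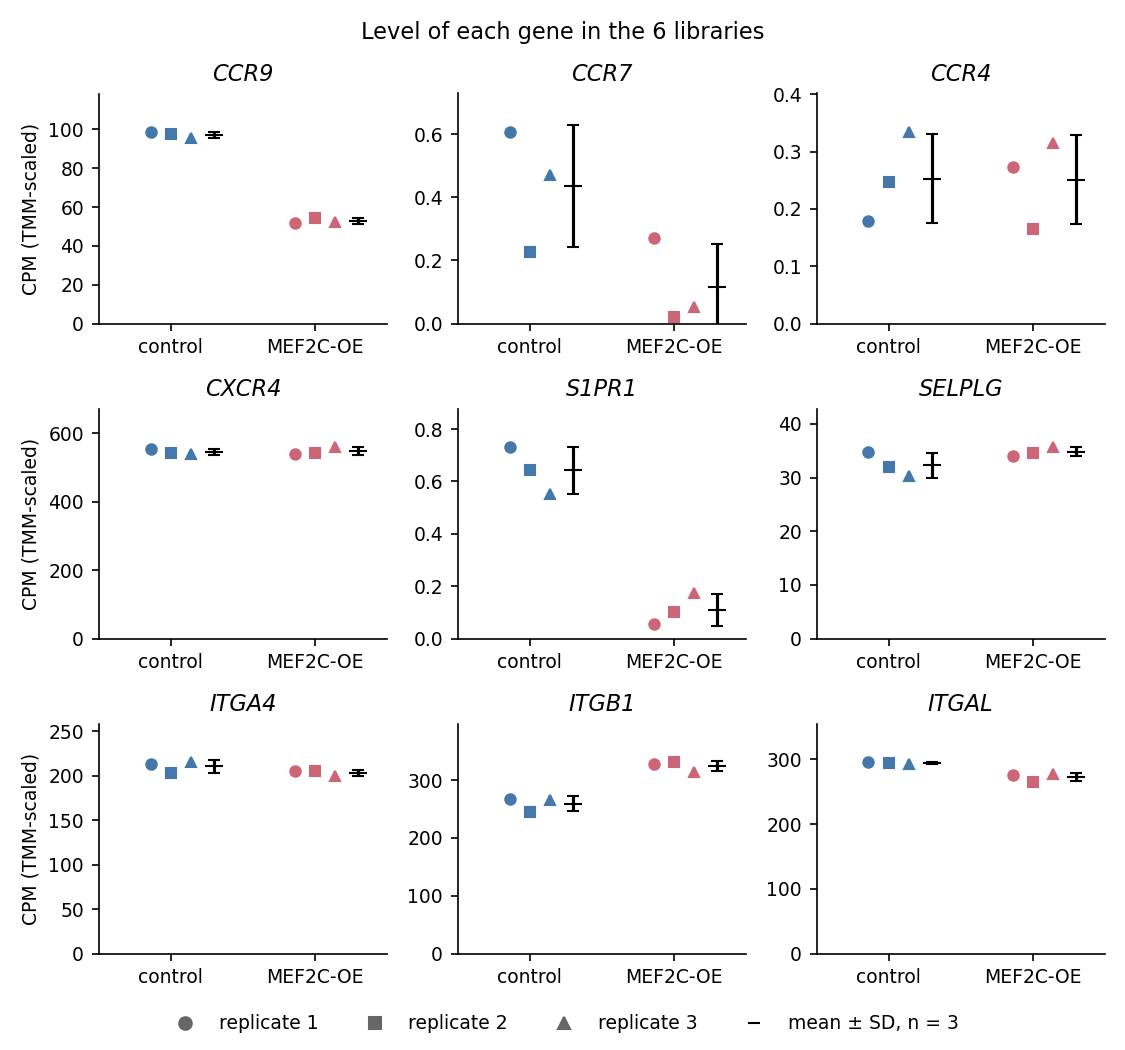
Level of each gene in CPM (vertical axes, from 0) in the control (blue) and MEF2C-OE (red) libraries, with marker shapes for the replicates and black bars for the mean ± SD of 3 libraries (the lower end of the CCR7 bar in MEF2C-OE is cut at 0). CCR9 lay at 95.5 to 98.7 CPM in control and 51.8 to 54.5 CPM in MEF2C-OE, and CXCR4 lay between 538 and 560 CPM in all 6.

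CCR9, the receptor for CCL25, is a G-protein-coupled receptor of immature thymocytes and gut-homing T cells (ENSG00000173585.18, plus strand of chromosome 3, 45886504 to 45903177 in GRCh38). It had 98.7, 97.5 and 95.5 CPM in control replicates 1 to 3 and 51.8, 54.5 and 52.3 CPM in the MEF2C-OE libraries. Every MEF2C-OE library was well below every control library, and the 3 libraries within a group lay close together. CCR9 fell from 97.2 ± 1.60 to 52.9 ± 1.44 CPM (SD, n = 3), 1.84-fold lower, with a log2 change of -0.88 (SE 0.035, adjusted p = 1.7e-23, edgeR). Of all genes tested, 1.85% were called with a fall at least as large. The log2 change stayed between -0.90 and -0.86 over 15 alternative settings. LZTFL1 overlaps CCR9 on the opposite strand without sharing exon bases and had 17729 to 22582 reads. The strand setting of the counting is not given, and the part of LZTFL1 reads in the CCR9 counts was not tested.

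CXCR4, the CXCL12 receptor that holds leukaemic and progenitor cells in marrow, was the most abundant gene of the set (ENSG00000121966.8, minus strand of chromosome 2, 136114349 to 136118165). It had 555, 543 and 538 CPM in the control libraries and 540, 541 and 560 CPM in the MEF2C-OE libraries. The groups overlapped throughout. The means were 545 ± 8.65 and 547 ± 11.3 CPM (SD, n = 3), a log2 change of 0.00 (SE 0.022, adjusted p = 0.89, edgeR). The sum of reads was 87106 in control and 88087 in MEF2C-OE, and their ratio after scaling was 1.004 (exact 95% interval 0.994 to 1.01, counting error only).

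CCR7, which brings T cells and T-ALL cells toward CCL19 and CCL21, was close to the detection limit (ENSG00000126353.4, minus strand of chromosome 17, 40553769 to 40565472). It had 34, 12 and 24 reads in the control libraries and 15, 1 and 3 reads in the MEF2C-OE libraries. CCR7 thus entered the test mainly through the control libraries. MEF2C-OE replicate 1, at 0.272 CPM, overlapped control replicate 2, at 0.227 CPM. The mean fell from 0.435 ± 0.193 to 0.115 ± 0.137 CPM (SD, n = 3; log2 change -1.88, SE 0.61, adjusted p = 0.012, edgeR). Summed over libraries it was 3.71-fold lower (exact 95% interval 2.21 to 6.53, counting error only). The call ended when control replicate 1 was left out (-1.56, adjusted p = 0.10). It also ended on leaving out MEF2C-OE replicate 2 (-1.42, adjusted p = 0.064), and likewise the third (-1.52, adjusted p = 0.068), and without MEF2C-OE replicate 1 the log2 change was -3.46.

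CCR4, a receptor of skin-homing and type 2 helper T cells that binds CCL17 and CCL22, was as scarce (ENSG00000183813.8, plus strand of chromosome 3, 32951574 to 32956349). It had 10, 13 and 17 reads in control and 15, 8 and 18 reads in MEF2C-OE. The libraries of both groups were interleaved, with a log2 change of 0.00 (SE 0.51, adjusted p = 1.00, edgeR). The ratio of summed reads was 1.02 (exact 95% limits 0.642 and 1.61, counting error only). Over genes as a whole replicates varied by more than counting error, which was not tested for CCR4 alone.

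S1PR1, the S1P receptor that lets thymocytes leave the thymus, had a large fold change at a low level (ENSG00000170989.10, plus strand of chromosome 1, 101236865 to 101243713). It had 41, 34 and 28 reads in the control libraries and 3, 5 and 10 reads in the MEF2C-OE libraries. The highest MEF2C-OE library, at 0.175 CPM, was under the lowest control library, at 0.551 CPM. S1PR1 fell from 0.642 ± 0.0908 to 0.111 ± 0.0606 CPM (SD, n = 3; log2 change -2.50, SE 0.50, adjusted p = 6.2e-05, edgeR). The ratio of summed reads was 5.77-fold lower (exact 95% interval 3.47 to 10.1, counting error only). With any 1 library left out the log2 change was -3.01 to -2.17 and the call held. S1PR1 entered the test through its control libraries, where it is high, so this call is no independent support for a fall.

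SELPLG encodes PSGL-1, the mucin that binds P-selectin (ENSG00000110876.11, minus strand of chromosome 12, 108622277 to 108633959). It had 34.8, 31.9 and 30.2 CPM in the control libraries and 34.1, 34.6 and 35.7 CPM in the MEF2C-OE libraries. Control replicate 1 lay among the MEF2C-OE values and the other controls below them. The log2 change was 0.11 (SE 0.053, adjusted p = 0.11, edgeR). It was called higher without control replicate 1 (0.16, adjusted p = 0.021) and after correction of each library for its trend on GC content and transcript length (0.29, adjusted p = 8.5e-06); the GC content of its longest transcript, 59.4%, was the highest of the 9 genes.

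Integrins, heterodimers of an alpha and a beta chain, did not move together. ITGB1, the beta-1 chain shared by fibronectin, laminin and collagen receptors, rose (ENSG00000150093.20, minus strand of chromosome 10, 32900319 to 33005792). It had 267, 244 and 266 CPM in the control libraries and 327, 331 and 314 CPM in the MEF2C-OE libraries, with no overlap. The mean went from 259 ± 12.9 to 324 ± 9.30 CPM (SD, n = 3), 1.25-fold higher, with a log2 change of 0.32 (SE 0.028, adjusted p = 1.0e-11, edgeR). The estimate was 0.24 after the GC and length correction and still called (adjusted p = 5.3e-10).

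ITGA4, the alpha-4 chain that pairs with ITGB1 as VLA-4, the VCAM-1 receptor, did not follow it (ENSG00000115232.14, plus strand of chromosome 2, 181457202 to 181536187). It had 213, 203 and 215 CPM in the control libraries and 206, 205 and 199 CPM in the MEF2C-OE libraries. The groups overlapped through control replicate 2. The log2 change was -0.05 (SE 0.026, adjusted p = 0.13, edgeR). ITGA4 was called lower without control replicate 2 (-0.08, adjusted p = 0.023) and after the GC and length correction (-0.10, adjusted p = 5.6e-04).

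ITGAL, the alpha-L chain of LFA-1, the ICAM receptor of T cells, fell slightly (ENSG00000005844.19, plus strand of chromosome 16, 30472658 to 30523185). It had 296, 294 and 292 CPM in the control libraries and 276, 265 and 277 CPM in the MEF2C-OE libraries. The groups did not overlap, although the distance was small. Antisense genes on the opposite strand share exon bases with ITGAL (AC116348.3, 415 bases, and AC116348.2, 204 bases) but had at most 2 reads in any library. The mean went from 294 ± 2.01 to 273 ± 6.33 CPM (SD, n = 3; log2 change -0.11, SE 0.023, adjusted p = 1.5e-04, edgeR), and -0.06 after the GC and length correction (adjusted p = 0.019). ITGB2, the beta-2 chain that completes LFA-1, had 309 ± 8.28 and 309 ± 5.64 CPM (log2 change 0.00, adjusted p = 1.00), and was called higher after that correction (0.13, adjusted p = 5.3e-06). ITGB7, the gut-homing partner of ITGA4, had only 1.27 ± 0.153 and 1.13 ± 0.292 CPM (-0.17, adjusted p = 0.64). Both beta chains were chosen after their values were seen.

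**Figure D2:**
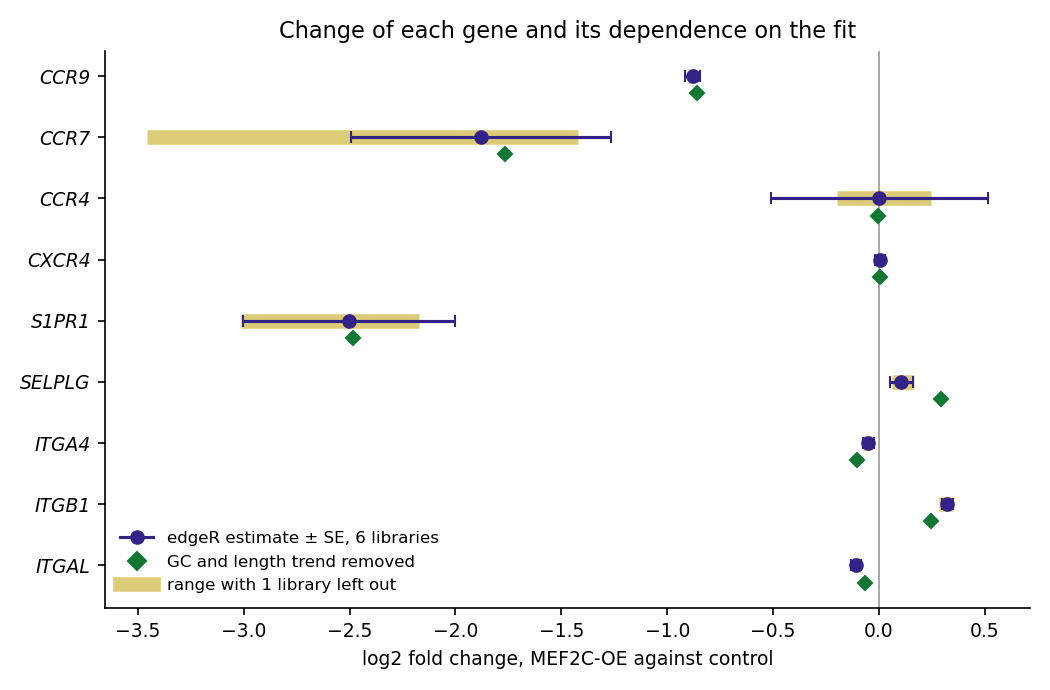
log2 change of MEF2C-OE against control for each gene (horizontal axis): circles with bars give the edgeR estimate ± SE from 6 libraries, diamonds the estimate after the GC and length correction, and thick bands the range when 1 library is left out. S1PR1 at -2.50 and CCR7 at -1.88 have the widest ranges, CCR9 at -0.88 a narrow one, and SELPLG moves from 0.11 to 0.29 between the circle and the diamond.

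Levels of different genes can be set beside each other only per length, as RPKM, the CPM divided by the length of the merged exons in kilobases. In control cells CXCR4 led at 245 ± 3.89 RPKM (SD, n = 3), above 99.5% of the 16951 tested genes with a length, ranked by their mean over the 6 libraries. ITGAL (45.5 ± 0.310), ITGB1 (43.1 ± 2.14), CCR9 (34.6 ± 0.570), ITGA4 (26.6 ± 0.880) and SELPLG (13.0 ± 0.930) followed, each with a range clear of its neighbour's. CCR7 (0.174 ± 0.0768), S1PR1 (0.123 ± 0.0174) and CCR4 (0.0817 ± 0.0252) came last, and neighbours in this order overlapped. In MEF2C-OE cells ITGB1, at 53.9 ± 1.55 RPKM, stood above ITGAL, at 42.1 ± 0.977, and CCR9, at 18.8 ± 0.512, stood below ITGA4, at 25.7 ± 0.448. These orders rest on the choice of length: per kilobase of the longest transcript ITGB1 was already above ITGAL in control cells (68.45 and 56.45 RPKM) and ITGA4 above CCR9 (50.24 and 36.65 RPKM).

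**Figure D3:**
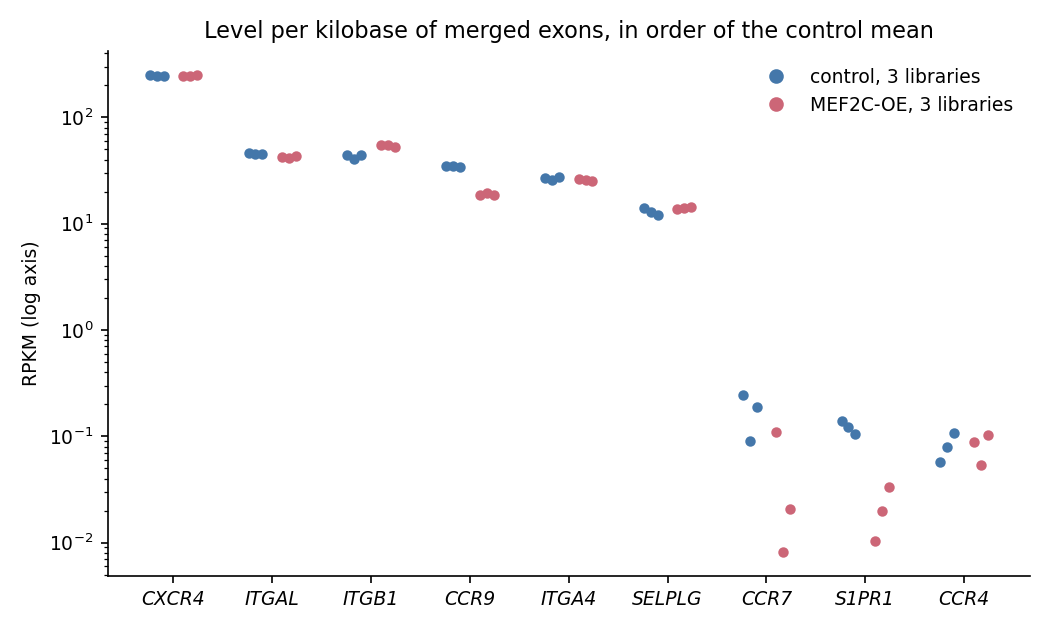
RPKM on a log axis for each gene, in order of the control mean, with 1 point for each of the 3 control (blue) and 3 MEF2C-OE (red) libraries. CXCR4 stands at 242 to 252 RPKM in every library, 5 genes lie between 12.1 and 55.2 RPKM, and CCR7, S1PR1 and CCR4 lie below 1.

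Of 16 ligands of these receptors 8 were tested, 2 rose, 4 fell and 2 did not pass. Thus 75% of those tested were called, against 41.0% of all genes tested. Among all genes with a mean of at least 30 CPM the share was 67.3%, so list shares also depend on level. CCL25, the CCR9 ligand, rose from 1.32 ± 0.393 to 2.12 ± 0.144 CPM (SD, n = 3; log2 change 0.68, adjusted p = 0.0097, edgeR), a call lost without control replicate 3 (0.46, adjusted p = 0.10). FN1, which encodes fibronectin, a ligand of VLA-4, rose from 7.36 ± 0.496 to 14.7 ± 0.799 CPM (log2 change 0.99, adjusted p = 6.7e-13). ICAM3, a ligand of LFA-1, fell from 69.8 ± 2.09 to 55.8 ± 1.59 CPM (-0.32, adjusted p = 2.5e-09). CXCL12, CCL19, CCL21, CCL17, CCL22, VCAM1, SELP and SELE were not tested, with at most 10 reads in any library.

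Few other chemokine receptors were detected. Of 21 listed, 15 had at most 14 reads in every library and were not tested. Of the 6 tested 1 fell and 5 did not pass, so 16.7% were called, against 41.0% of all genes. Without control replicate 2 there were 2 lower. CCR8, a receptor of thymocytes and regulatory T cells, fell from 9.16 ± 0.563 to 7.64 ± 0.391 CPM (log2 change -0.26, adjusted p = 0.022, edgeR), a call lost without control replicate 1 (-0.21) or MEF2C-OE replicate 3 (-0.22). The median over the 6 tested was -0.67, beside -0.01 over all genes tested, and 5 of the 6 had means under 1 CPM.

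In the S1P pathway 2 of 15 tested genes rose, 2 fell and 11 did not pass. The share called was 26.7%, against 41.0% of all genes tested. CD69, which binds S1PR1 and removes it from the cell surface, had 12.6, 9.01 and 10.3 CPM in control and 7.52, 6.86 and 6.68 CPM in MEF2C-OE, and fell by 0.60 on the log2 scale (adjusted p = 5.1e-06, edgeR). Its groups did not overlap. Of the other S1P receptors S1PR3 rose from 7.75 ± 0.238 to 9.78 ± 0.502 CPM (0.33, adjusted p = 0.0027). SGPL1, the lyase that degrades S1P, rose by 0.23, and MFSD2B, an S1P transporter of under 1 CPM that was named after its values were seen, was called lower (-0.89, adjusted p = 0.047), a call that most alternative settings did not keep.

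Regulators of trafficking genes were examined from a list of 16 transcription factors. KLF2, a Krüppel-like factor known to activate S1PR1 in thymocytes, had 4.66, 4.11 and 4.84 CPM in control and 2.07, 2.96 and 1.89 CPM in MEF2C-OE. Each MEF2C-OE library was below each control library (log2 change -0.98, SE 0.16, adjusted p = 1.6e-06, edgeR). FOXO1, which is known to support KLF2 and CCR7 expression, had 4.55 ± 0.852 and 5.23 ± 1.10 CPM (0.20, adjusted p = 0.28), and was called higher without MEF2C-OE replicate 1 (0.37, adjusted p = 0.043). Of the 15 factors tested 5 rose, 6 fell and 4 did not pass, so 73.3% were called, against 41.0% of all genes tested. NR4A1, an orphan nuclear receptor, fell by 1.24 on the log2 scale, EPAS1, a hypoxia-inducible factor, by 0.77 and GATA3 by 0.67.

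The Gi signalling list held G-protein subunits of Gi and other classes, receptor kinases, arrestins, RGS regulators and PI3K subunits. Of 22 tested 3 rose, 10 fell and 9 did not pass. The median log2 change was -0.10, and 59.1% were called, against 41.0% of all genes tested. RGS2, which shortens G-protein signals, fell by 0.72 (adjusted p = 9.6e-06, edgeR), PIK3R5, a regulatory subunit of PI3K-gamma, by 0.57 and ARRB2, an arrestin that uncouples and internalizes receptors, by 0.37. RGS3 had a log2 change of -0.31 (adjusted p = 0.0023), which was not called after the GC and length correction (-0.19) or without control replicate 2 (-0.21).

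Among the other integrins 1 of 16 tested rose, 5 fell and 10 did not pass. The share called was 37.5%, against 41.0% of all genes tested. ITGAE, the alpha-E chain that binds E-cadherin, fell from 77.8 ± 3.73 to 48.6 ± 1.22 CPM (log2 change -0.68, adjusted p = 3.6e-18, edgeR). ITGA6, a laminin-receptor chain that pairs with ITGB1, fell by 0.34 and ITGA2B, the platelet alpha-IIb chain, by 1.64 at a control mean of 1.78 CPM. ITGA5, the fibronectin-receptor chain that pairs with ITGB1, had -0.17 (adjusted p = 0.049), and lost its call in 11 of 15 alternative settings. ITGAV, which was named after its values were seen, was the 1 that rose (0.08, adjusted p = 0.0085).

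Genes of integrin activation moved both ways, with 6 of 22 tested higher, 10 lower and 6 not past the test. The share called was 72.7%, against 41.0% of all genes tested. TLN2, a talin that switches integrins on, rose from 21.7 to 32.0 CPM, by 0.56 on the log2 scale (adjusted p = 1.0e-10, edgeR). RAPGEF1, an exchange factor for RAP1, rose by 0.30, while the kindlin gene FERMT2 fell by 0.39 and vinculin, VCL, by 0.33. The other talin gene, TLN1, had 352 and 364 CPM and did not pass (0.05, adjusted p = 0.13, edgeR). FERMT3, a kindlin gene, fell from 91.5 to 78.0 CPM (-0.23). TLN1 and FERMT3 were named after their values were seen. In the list of selectin-ligand synthesis and carriers 4 of 16 tested rose, 2 fell and 10 did not pass. In this list 37.5% were called, against 41.0% of all genes tested. Only 2 rose without control replicate 1 or without MEF2C-OE replicate 3. The sialyltransferase gene ST3GAL4 rose by 0.39 and B4GALT1, a galactosyltransferase, by 0.24, whereas ST3GAL1 fell by 0.45. GCNT1, the branching enzyme of the PSGL-1 glycan, had 0.27 (adjusted p = 0.021) and lost its call in 6 of 15 alternative settings. FUT7, the fucosyltransferase that completes selectin ligands on leukocytes, was not tested, with at most 16 reads in any library.

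**Figure D4:**
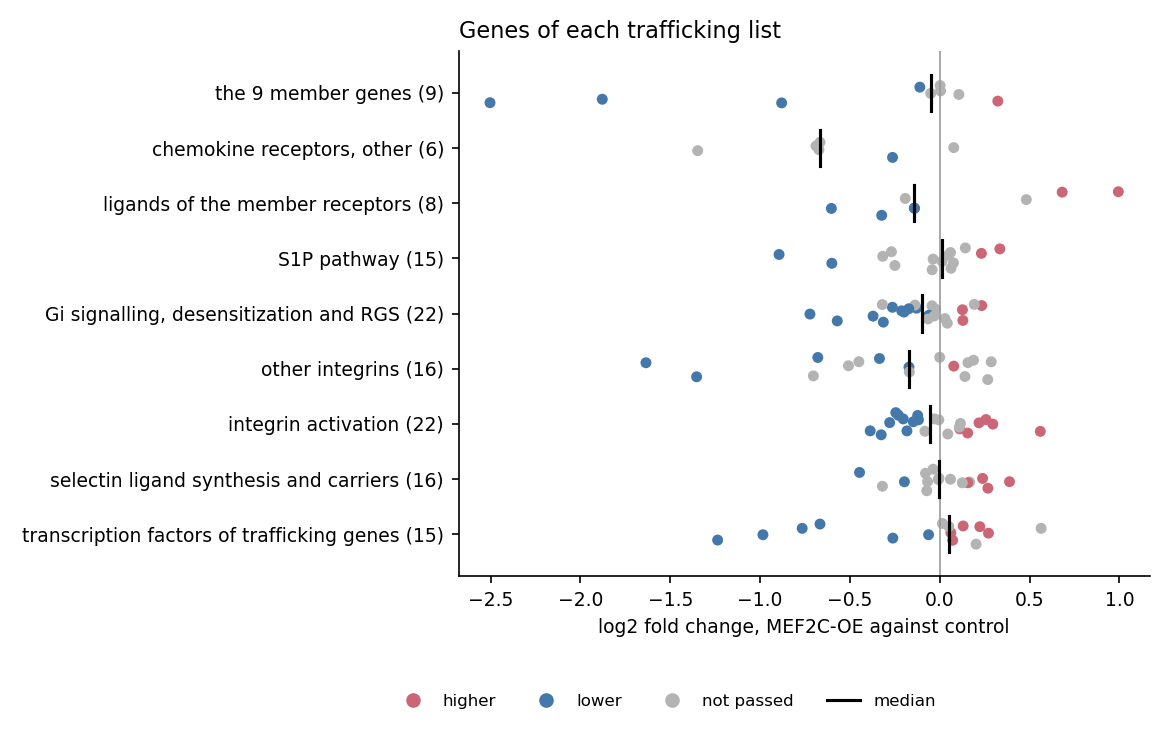
log2 change of MEF2C-OE against control (horizontal axis) for each tested gene of the 9 member genes and of 8 lists, with the number tested in brackets, coloured by the edgeR call, and a black line at each median. The 3 leftmost points of the top row are S1PR1 (-2.50), CCR7 (-1.88) and CCR9 (-0.88). The row of other integrins holds 1 higher and 5 lower genes, and of all genes tested 41.0% were called.

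Genes of most similar pattern were found for CCR9, ITGB1 and ITGAL, the members of largest change with a mean of at least 1 CPM, by the distance between centred log2 CPM over the 6 libraries. For CCR9 these were EGR1 (distance 0.069), DIPK1B (0.079) and DDIT4 (0.104). EGR1 went from 96.0 ± 2.19 to 50.8 ± 0.541 CPM (SD, n = 3), close to the CCR9 values in both groups. For ITGB1 they were FAM76B, ZRANB3 and AGPS, and for ITGAL they were OS9, PIP4K2B and KDM4A. With only 2 groups, any gene with a like difference between them scores as similar.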

How the data were processed

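The deposited values were raw counts of reads per gene, which the authors made with Trim Galore, STAR and HTSeq on hg38, per the submitters' processing notes; the sources used here state no versions, strand setting or annotation release. The 5 summary lines were left out; assigned reads made up 70.9% to 71.3% of all lines. Genes were matched by identifier without version, symbols came from a table of gene names, and positions and lengths from GENCODE 29.

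Counts were tested in R 4.3.3 with edgeR 4.0.16 (filterByExpr, TMM, robust quasi-likelihood fit with group as the only term, Benjamini-Hochberg over 19086 genes, called under 0.05). SE came from the fold change and F. CPM were TMM-scaled. Intervals are exact binomial. Alternatives were other scalings and filters, DESeq2 1.42.0, limma-voom 3.58.1, a replicate block, a GC and length offset (splines of 5 degrees of freedom, with GC content and length for 88.8% of tested genes) and each library left out. Replicates differed beyond counting noise (chi-square per degree of freedom 3.08 to 5.17).

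Members and lists were chosen with earlier results of these data known. Named were all 9 members, from each list up to 4 called genes averaging 1 CPM or more, taken by size of log2 change in either direction, the 3 genes nearest in pattern among those averaging 5 CPM or more, MEF2C, KLF2, FOXO1 and CD69; 1 list and some genes that the rule names are not reported here. Genes outside this rule are said to be chosen after their values were seen or are named as markers, overlapping genes or not tested.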

Additional observations from a re-analysis of the deposited data

How the results depend on the processing

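CCR9, ITGB1 and ITGAL kept direction and call in every alternative. S1PR1 did so wherever it could be tested, but it entered the test through its control libraries, so this is no independent support. A filter of 1 CPM removed S1PR1, CCR7 and CCR4, so 2 members were called lower. With the GC and length trend removed, alone or with the replicate block, 2 members were called higher. These were ITGB1, at 0.24 in both, and SELPLG, at 0.29 and 0.30. ITGA4, at -0.10 in both, was called lower. With 1 library left out, CCR7 ranged from -3.46 to -1.42, CCR4 from -0.20 to 0.25, CXCR4 from -0.011 to 0.017, SELPLG from 0.061 to 0.164, ITGA4 from -0.077 to -0.033, ITGB2 from -0.0205 to 0.0177 and ITGB7 from -0.33 to 0.0198, and the count of members called higher from 1 to 2. Values near 0, not called under the settings listed here, changed sign: CCR4 at -0.0015 (no count filter), -0.0082 (replicate block), -0.0042 (GC and length) and -0.014 (both), CXCR4 at -0.00019 (1 CPM), ITGB2 at -0.0013 (no filter), -0.0050 (1 CPM) and -0.00084 (limma-voom), and ITGB7 at 0.0036 (GC and length). Per kilobase of the longest transcript the control means were 288 RPKM for CXCR4, 68.45 for ITGB1, 56.45 for ITGAL, 50.24 for ITGA4, 36.65 for CCR9, 14.3 for SELPLG and 0.221 for S1PR1. List counts moved by over 1.5 times with the GC and length trend removed: genes called higher went from 2 to 5 in the S1P list, 3 to 5 in the Gi list, 4 to 2 in the selectin-ligand list and 5 to 3 among transcription factors. Without control replicate 2 the Gi list had 6 genes lower, against 10, and the S1P list had 1 lower, against 2, under most alternatives. Leaving out 1 library moved the other chemokine receptors called lower from 1 to between 0 and 2, and the selectin-ligand genes called higher from 4 to 2 at the lowest.

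Over 13914 genes no pairing by replicate number was seen: deviations of same-numbered libraries from their group means correlated at -0.0194 to 0.0165. Not every library correlated best with its own number. A pairing confined to part of the genes was not tested. The replicate block called 3953 genes higher and 3845 lower, against 3962 and 3859, and changed no member's call. Depth limits CCR7, CCR4 and S1PR1, where a count of 0 would allow up to 3 counts, or 0.0527 to 0.0622 CPM.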
